A study of Drosophila melanogaster with 4 samples.

Results

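The subject here is a set of 541 broad domains bound by MBD-R2 in Drosophila melanogaster embryos, each at least 7 kb wide. MBD-R2 is a subunit of the nonspecific lethal (NSL) complex of flies, which also holds MOF, an enzyme that acetylates histone H4. In background knowledge, the NSL complex sits near the starts of active genes, many of them housekeeping genes, on all chromosomes, and it supports their transcription. MOF has a separate role in the MSL complex, which raises transcription of genes on the X of males.

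Chromatin immunoprecipitation with sequencing (ChIP-seq) was done on whole wild-type embryos of the Oregon-R strain (Oregon-R-modENCODE), 14 to 16 h old and fixed with formaldehyde, using an antibody labelled Q4167. There were 2 ChIP libraries, and 2 Input libraries of chromatin taken without the antibody. All 4 libraries share strain, genotype and stage, so no treatment or mutant enters, and the labels state neither the sex of the embryos nor whether the replicates were collected separately. In whole embryos, binding in fewer cells and weaker binding per cell cannot be told apart.

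The deposited lists give regions of significant enrichment on FlyBase release 5, counted from base 1, each with a score from the authors. Neither the labels nor the headers state the scale of that score. ChIP replicate 1 held 4586 regions, ChIP replicate 2 held 4789, and a combined list of both held 6826. Read depth is unknown from these lists, and no read-level precision can be given.

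Domains were selected on the measured width of the combined regions: at least 7000 bp, on X, 2L, 2R, 3L, 3R or 4, with an overlap of at least 1 bp with a region of each replicate. Of 6661 combined regions on these 6 arms, 541 met the rule (8.12%). Overlap with both replicates alone was met by 3675 regions (55.2%), and the 3134 of them below 7 kb are called narrower regions here. Every combined region of at least 7 kb on the 6 arms overlapped both replicates, so the requirement of replicate support removed none. Width chose the members, and score, splitting and spacing come from the same lists. Differences from narrower regions in these measures are therefore descriptions, and no test was run on them.

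The domains summed to 5.44 Mb. They were 8.12% of the combined regions on the 6 arms but held 25.3% of their bases, and they took up 4.51% of the arm sequence. Their median width was 9015 bp, with quartiles at 7843 and 11287 bp, against a median of 3453 bp for narrower regions. Most were near the limit: 155 were under 8 kb, 188 were from 8 to under 10 kb, 158 from 10 to under 15 kb, 30 from 15 to under 20 kb, and 10 were 20 kb or wider.

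The limit cuts through a continuous range of widths. The 3 narrowest domains measured 7009 bp on X from 16177264, 7011 bp on 2L from 19060414 and 7011 bp on 2R from 7243818, with combined scores of 1.47, 1.03 and 1.26. The 3 widest regions below the limit measured 6971 bp on 2R from 4798308, 6965 bp on 2R from 12902008 and 6957 bp on 3R from 10563256, with combined scores of 1.08, 1.00 and 1.27. Scores on either side of the limit overlapped.

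Broad domains mostly scored higher than narrower regions, but the highest combined score belonged to a narrower region. For each combined region the highest-scoring overlapping region of a replicate was taken as its score in that replicate. Its median was 1.36 over broad domains and 0.953 over narrower regions in replicate 1, and 1.40 and 0.994 in replicate 2. The difference was 0.406 ± 0.0041 (SD, n = 2). Broad domains had more replicate regions from which to take the highest score. With the mean score of the replicate regions instead, the difference was 0.314. In the combined list the median score was 1.22 for broad domains, ranging from 0.404 to 1.98, and 0.890 for narrower regions, ranging from 0.146 to 2.67. The whole broad range thus lay inside the narrower one, while the lower quartile was 1.05 for broad domains and 0.585 for narrower regions. Of the broad domains, 82.3% scored above the median of all regions found in both replicates (0.958), against 44.4% of narrower regions.

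None of the 10 highest combined scores among regions found in both replicates belonged to a broad domain. The count was 7 of the 50 highest, 16 of the 100 highest and 126 of the 500 highest. Of all regions found in both replicates, 14.7% were broad. The counts among the 50 and 100 highest were near that share, and 10 regions are too few to set against it. Among the 500 highest, 25.2% were broad. The best-scoring domain ranked 17th. Score climbed with width among narrower regions (Spearman rho = 0.568 across 3134 regions) and hardly at all among broad ones (rho = 0.0925 across 541 domains). These are correlations across regions of the same list, which are not independent. The median combined score was 0.640 for regions of 2 to under 3 kb, 1.00 at 3 to under 4 kb and 1.14 at 6 to under 7 kb. Above the limit it was 1.18 at 7 to under 8 kb, 1.22 at 8 to under 10 kb, 1.25 at 10 to under 15 kb and 1.30 at 15 kb or wider. Against narrower regions of 5 to under 7 kb, a comparison chosen after the values were seen, the median replicate score of broad domains was higher by 0.145.

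**Figure D1:**
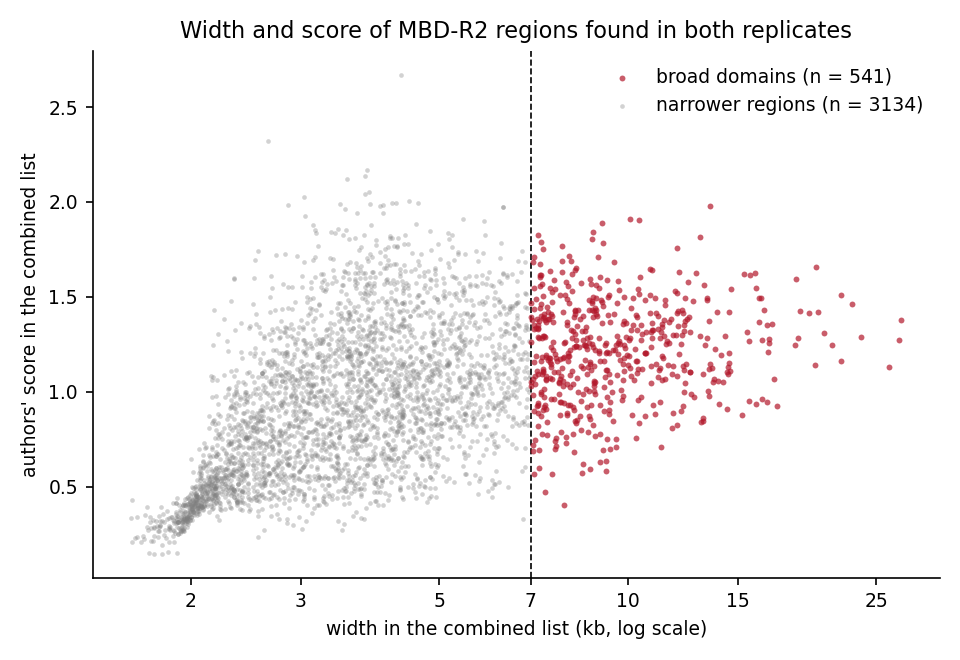
Width of each combined region found in both replicates (horizontal axis, kb, log scale) against its score in the combined list (vertical axis, the authors' units), with 541 broad domains in red, 3134 narrower regions in grey and the limit of 7 kb as a dashed line. The cloud rises with width up to about 4 kb and more slowly above it, and the top score of 2.67 belongs to a narrower region.

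The 5 highest-scoring domains lay on 3R, X and 2R, and 4 of them were undivided in each replicate. The top one, 13.5 kb on 3R from 25860650 to 25874174, had a combined score of 1.98, with 2.18 in replicate 1 and 2.01 in replicate 2. It was 2 regions in replicate 1, of 2.73 and 10.2 kb with scores of 1.36 and 2.18, and 1 region of 13.3 kb in replicate 2. On X, 10.1 kb from 15625242 to 15635334 had a replicate 1 score of 1.86 and a replicate 2 score of 2.00, and 10.4 kb from 19383404 to 19393846 had 2.02 and 2.07. On 2R, 9.12 kb from 11099478 to 11108594 had 1.94 and 1.93, and 8.81 kb from 10638216 to 10647022 had 1.87 and 1.88. The replicates were nearly level on 2R and differed most at the 3R domain.

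The 5 lowest-scoring domains were 7.09 to 8.47 kb wide, near the limit. The lowest, 7.90 kb on 3L from 637524 to 645422, had a combined score of 0.404. In replicate 1 it was a single region of 1475 bp, scoring 0.466, which covered 18.7% of the domain. In replicate 2 it was 2 regions of 3222 and 3244 bp, scoring 0.493 and 0.655, which covered 81.9%. Next came 7.36 kb on 3L from 1201994 to 1209358 (combined score 0.472), 22.3% covered in replicate 1 and 63.7% in replicate 2. The others lay on X from 13193890, on 2R from 6441112 and on 3L from 16368804, with combined scores of 0.565, 0.566 and 0.573. The lowest pair was covered far less in replicate 1 than in replicate 2.

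Over all domains the replicates gave close scores. The median absolute difference between them was 0.0904 for broad domains and 0.0925 for narrower regions, and the largest was 0.456 for broad domains and 1.40 for narrower ones. Spearman's rho between replicates was 0.871 across broad domains and 0.943 across narrower regions, given here as a description across regions of 1 pair of libraries. The broad domains span a narrower range of scores. Replicate 2 was the higher one in 332 of 541 broad domains (61.4%) and in 60.8% of narrower regions, so the tilt was alike in both classes.

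About 4 in 10 domains were a single region in each library. The number undivided in both replicates was 225 of 541 (41.6%), against 94.0% of narrower regions. A further 164 (30.3%) were split in both, 97 (17.9%) in replicate 1 alone and 55 (10.2%) in replicate 2 alone. Replicate 1 held 280 domains as 1 region, 202 as 2, 52 as 3, 6 as 4 and 1 as 5. Replicate 2 held 322 as 1 region, 176 as 2, 42 as 3 and 1 as 4. The share of domains that were 1 region averaged 55.6% ± 5.5 (SD, n = 2), against 96.3% ± 0.34 for narrower regions. Wider domains were split more often: the share held as 1 region was 69.7% in replicate 1 and 70.3% in replicate 2 at 7 to under 8 kb, and 30.0% and 40.0% at 15 kb or wider. Below the limit, at 6 to under 7 kb, it was 79.3% in replicate 1 and 81.8% in replicate 2, so splitting became more common with width on both sides of the limit.

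Despite the splits, most of the summed bases of the domains were covered. Replicate regions covered 87.6% ± 2.3 (SD, n = 2) of the bases of broad domains, at 86.0% in replicate 1 and 89.3% in replicate 2. For narrower regions the figure was 85.6% ± 3.0. Over summed bases, domains were covered more by 2.50 percentage points in replicate 1 and 1.52 in replicate 2. The mean was 2.01 ± 0.69 (SD, n = 2), which is small beside the coverage itself. Region by region this lead was absent. The median covered share was 88.3% for domains and 88.4% for narrower regions in replicate 1, and 91.7% and 92.7% in replicate 2. Domains split in both replicates were wider (median 10299 bp) than those undivided in both (8403 bp), but their median combined score was lower, at 1.15 against 1.30. By the highest-scoring piece the order was the opposite. Its median was 1.39 for split against 1.36 for undivided domains in replicate 1, and 1.46 against 1.40 in replicate 2. A split domain takes the highest of several scores, while an undivided one has a single score, which by itself raises the split value. Domains split in 1 replicate lay between them in width, at a median of 9044 bp, and had a median combined score of 1.16.

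Many domains reached 7 kb in neither library on its own. A single region of at least 7 kb was present in both replicates for 177 domains (32.7%), in 1 replicate for 148 (27.4%) and in neither for 216 (39.9%). Median widths in the combined list were 10451, 8922 and 8147 bp in these classes. The replicate lists themselves held 219 regions of at least 7 kb in replicate 1 and 289 in replicate 2 on the 6 arms. With regions joined over both replicate lists wherever they overlapped, 376 stretches of at least 7 kb were found.

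The breaks inside domains were short. Replicate 1 had 328 gaps within domains, with a median of 442 bp and a longest of 4347 bp. Replicate 2 had 263, with a median of 423 bp and a longest of 3377 bp. Gaps under 500 bp made up 175 of 328 and 152 of 263. Across the 6 arms, the median gap between neighbouring regions was 6475 bp in replicate 1 and 5949 bp in replicate 2. A gap inside a domain lay within a single combined region by definition, so it was bound to be short beside these. Joining replicate regions over gaps of up to 500 bp raised the mean share of domains held as 1 region to 77.3%, and up to 1000 bp to 88.7%.

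Breaks often, but not always, fell at the same place in both libraries. Of the replicate 1 gaps, 155 of 328 (47.3%) overlapped a gap of replicate 2, and of the replicate 2 gaps, 154 of 263 (58.6%) overlapped one of replicate 1. Coinciding gaps were the longer ones: in replicate 1 their median was 636 bp, against 302 bp for gaps that met none, and in replicate 2 it was 521 against 278 bp. A gap beyond the outermost region of the other replicate in a domain also counted as meeting none, although that replicate had no region there. Replicate 2 regions covered 63.2% of the bases in replicate 1 gaps, against 89.3% of all domain bases. Replicate 1 regions covered 43.6% of the bases in replicate 2 gaps, against 86.0% of all domain bases. A longer gap is also more likely to meet another one by its length.

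Split domains were uneven in strength. The longest piece took a median of 60.6% of the covered bases in replicate 1 and 60.0% in replicate 2. It was also the highest-scoring piece in 172 of 261 split domains (65.9%) in replicate 1 and in 142 of 219 (64.8%) in replicate 2. The highest- and lowest-scoring pieces of 1 domain differed by a median of 0.415 in replicate 1 and 0.454 in replicate 2. In 145 of the 164 domains split in both (88.4%), the highest-scoring pieces of both replicates overlapped. Most split domains had only 2 pieces, 202 of 261 in replicate 1 and 176 of 219 in replicate 2. With so few pieces, both kinds of match would be common without any link, and the shares were not set against such a rate.

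The 10 widest domains show the whole range of structures. The widest, 27.4 kb on 2L from 11986068 to 12013466 with a combined score of 1.38, was unbroken in each library and 98.3% covered on average. Another unbroken one was the 21.9 kb domain on X from 1352342 to 1374256, at 21.5 kb in replicate 1 with a score of 1.60 and 21.7 kb in replicate 2 with a score of 1.47. Also undivided was the 22.9 kb domain on 2L from 4961600 to 4984454, scoring 1.46 in replicate 1 and 1.66 in replicate 2. It was 85.8% and 83.6% covered, with uncovered stretches at its ends.

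The 27.1 kb domain on X from 6164508 to 6191656 was the most divided, with 5 regions in replicate 1 and 3 in replicate 2. Its strongest piece lay at the right end in both, 11.1 kb with a score of 1.74 in replicate 1 and 11.9 kb with a score of 1.66 in replicate 2. The next piece in score was the 5.44 kb one in replicate 1 at 1.17 and the 5.94 kb one in replicate 2 at 1.27, both left of the middle. The weakest piece scored 0.504 in replicate 1 and 0.850 in replicate 2. Scores were thus lower between these pieces in both libraries.

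On 2R, the 26.2 kb domain from 19736088 to 19762264 had 3 regions in each replicate, and its longest piece was its weakest. That piece was 13.5 kb with a score of 0.993 in replicate 1 and 13.4 kb with a score of 1.03 in replicate 2, while the shorter pieces scored between 1.32 and 1.56. On X, the 23.7 kb domain from 19524534 to 19548198 had a small outlying piece at its left end, of 1666 bp with a score of 0.445 in replicate 1 and 2133 bp with a score of 0.691 in replicate 2.

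The 21.9 kb domain on 2L from 19006482 to 19028406 broke at the same points in both libraries. Its pieces measured 12.7, 2.32 and 5.22 kb in replicate 1 and 12.5, 2.48 and 5.27 kb in replicate 2, with the middle one weakest at 0.923 and 0.768. On 3R, the 21.2 kb domain from 10709610 to 10730858 had 4 regions in each replicate. Only its first break was shared, and its other breaks fell at different places. Its pieces in replicate 1 were nearly level, from 1.25 to 1.35, while those in replicate 2 ranged from 1.10 to 1.69. The remaining members of the 10 were 20.6 kb on X from 11458848, with 2 regions in replicate 1 and 1 in replicate 2, and 20.1 kb on X from 6566014, with 3 and 1.

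**Figure D2:**
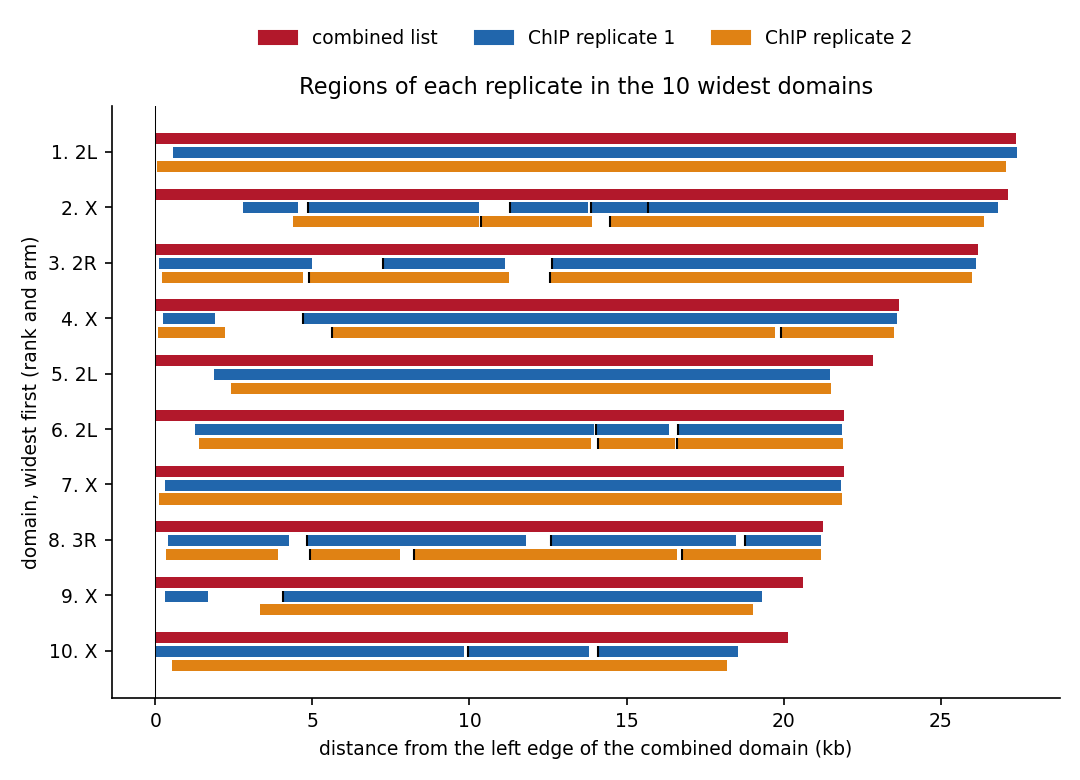
The 10 widest domains, widest at the top, with the combined region in red and the regions of ChIP replicate 1 in blue and ChIP replicate 2 in orange, against distance from the left edge of the combined domain (kb), and a black line where a further region of the same replicate starts. The widest domain, on 2L, is 1 bar of 27.4 kb unbroken in both replicates, while the next, on X, is cut into 5 regions in replicate 1 and 3 in replicate 2.

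Of the other domains with most pieces, the 18.7 kb domain on 2R from 19579624 to 19598362 had 4 regions in replicate 1 and 3 in replicate 2, with a combined score of 1.29. The 10.4 kb domain on 2R from 11451996 to 11462418 also had 4 and 3, with a lower combined score of 0.837. At the other extreme, 2 domains were under 50% covered in each replicate although each was 1 region there, on 2L from 2186946 to 2194608 (45.9% and 44.2%) and on X from 1799958 to 1809478 (45.3% and 45.1%). The X one nonetheless scored 1.83 in replicate 1 and 2.07 in replicate 2. In both libraries its region, 4310 bp long in replicate 1 and 4294 bp in replicate 2, lay at the left end of the domain, and the right side was present in the combined list alone.

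X held more broad domains than its length or its number of regions would give at the autosomal rate. It carried 149 of the 541 domains (27.5%) on 18.6% of the arm sequence. Of the X regions found in both replicates, 22.3% were broad (149 of 668, 95% Wilson interval 19.3 to 25.6%), against 13.1% on the 4 large autosomal arms pooled (387 of 2959, 11.9 to 14.3%). These intervals cover counting error only and are not a test. They treat regions as independent, although domains lay near each other. The single autosomal arms gave 14.4% on 2L, 12.2% on 2R, 12.0% on 3L and 13.8% on 3R, all below the X value. Domains covered 7.01% of X and 3.94% of the autosomal arms, at 6.65 and 4.01 domains per Mb. X domains were also somewhat wider, with a median of 9483 bp against 8829 bp. Domains of 15 kb or more numbered 16 on X and 24 on the autosomal arms, or 2.40% and 0.811% of regions found in both replicates.

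The lead of X depended on which regions were counted. Over all combined regions, found in both replicates or not, 11.3% were broad on X and 7.34% on the autosomal arms, a lead of 3.98 percentage points chosen for comparison after the values were seen. The replicate lists on their own gave a smaller lead. In replicate 1, 6.64% of X regions and 4.45% of autosomal regions were at least 7 kb wide. In replicate 2, these were 7.89% and 5.72%. The difference was 2.19 percentage points ± 0.017 (SD, n = 2) over all regions of a replicate list, against 9.23 points over combined regions found in both replicates. Among the large autosomal arms, 2L came nearest to X, at 5.39% in replicate 1 and 6.62% in replicate 2. With 2 libraries no test over samples was made.

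**Figure D3:**
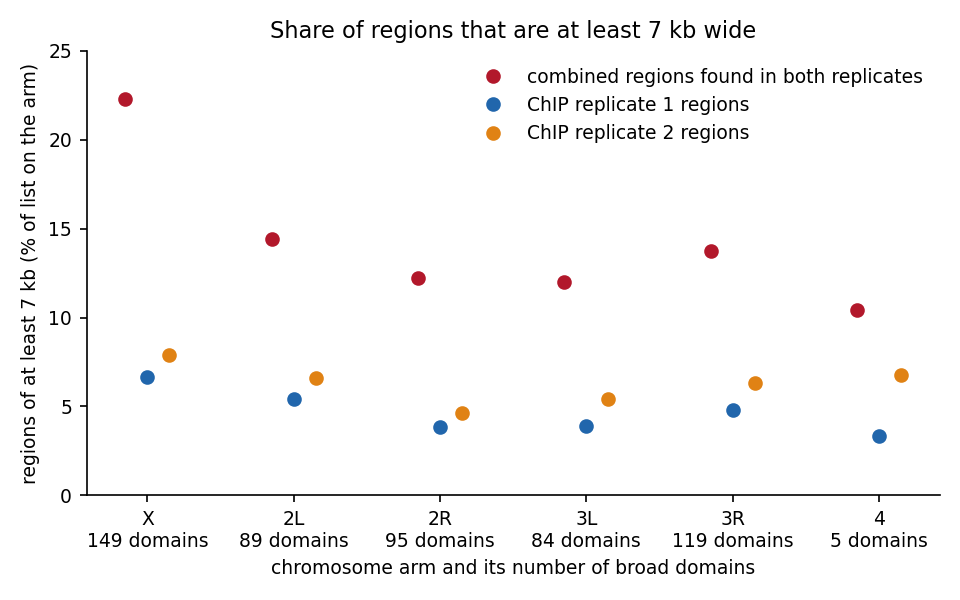
Percentage of regions at least 7 kb wide on each chromosome arm, for combined regions found in both replicates (red) and for the regions of ChIP replicate 1 (blue) and ChIP replicate 2 (orange), with the number of broad domains under each arm. X is highest in all 3 lists, at 22.3%, 6.64% and 7.89%.

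Domains on X scored higher in each replicate than those on the autosomal arms, with medians of 1.45 and 1.34 in replicate 1 and 1.47 and 1.37 in replicate 2. In the combined list the medians were closer, at 1.26 on X and 1.20 on the autosomal arms, with 1.24 on 2L. A replicate score is the highest over the pieces of a domain, and the effect of the number of pieces was not tested. Narrower regions differed less by chromosome, at 0.998 on X and 0.948 on the autosomal arms in replicate 1 and 1.01 and 0.994 in replicate 2. X domains were split a little more often, 47.7% of them being 1 region in replicate 1 and 55.0% in replicate 2, against 53.5% and 61.0% on the autosomal arms. They were also wider, with a median of 9483 bp against 8829 bp, and wider domains were split more often. The part of width in this difference was not tested.

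The small chromosome 4 held 5 domains among 48 regions found in both replicates (10.4%). Of these, 4 lay together between 1279926 and 1349030, at the distal end, and the remaining one started at 1045990. The widest, 14.5 kb from 1279926 to 1294460, was undivided and scored 1.10 in replicate 1 and 1.30 in replicate 2. The highest-scoring was 8.78 kb from 1315580 to 1324358, at 1.83 and 1.79. This grouping was picked out after its values were seen.

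Along X and the 4 large autosomal arms, domains lay slightly farther from the centromere than narrower regions, except on 3R. The median domain was at 55.5% of the arm length from the centromere-side end (n = 536), against 51.6% for narrower regions (n = 3091), a difference of 3.83 points. It was 9.54 points on X, 8.07 on 2L, 4.95 on 2R and 2.51 on 3L, but -2.92 points on 3R, where domains were closer to the centromere. With each arm cut into 3 equal segments, the segment at the centromere held 162 domains, the middle one 174 and the segment at the telomere 200. Narrower regions were even, at 1016, 1031 and 1044. The arms did not all follow this order. X had 49, 41 and 59 domains from centromere to telomere, 2L had 20, 27 and 42, 2R had 22, 38 and 35, 3L had 24, 27 and 33, and 3R had 47, 41 and 31.

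**Figure D4:**
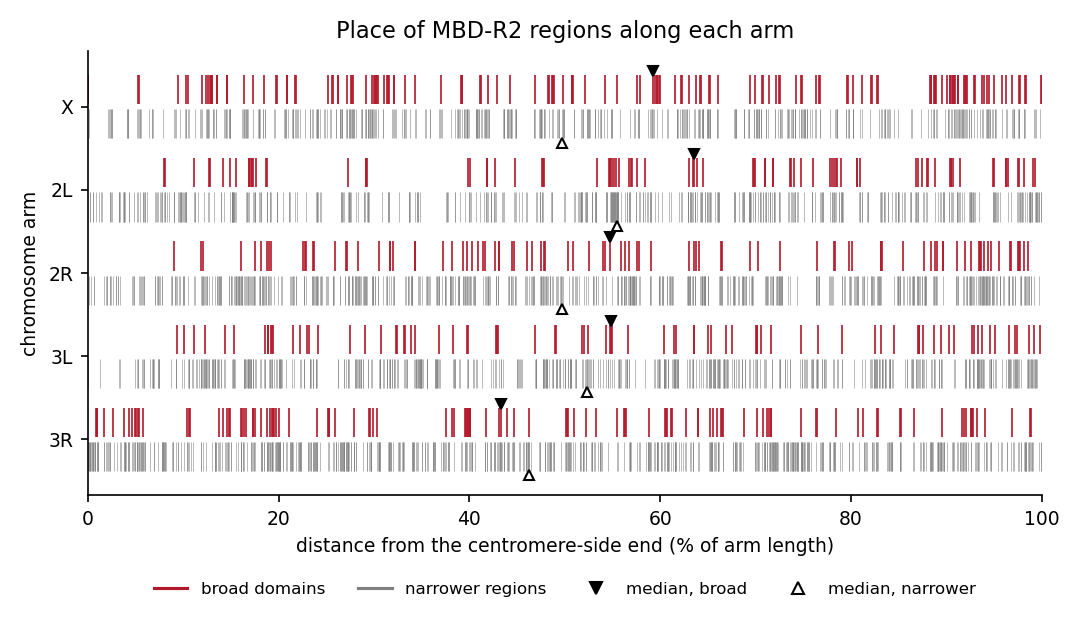
Place of broad domains (red ticks, above) and narrower regions (grey ticks, below) on each arm, as distance from the centromere-side end in percent of arm length, with medians as filled and open triangles. On 2L the median domain lies 8.07 points farther from the centromere than the median narrower region, and on 3R it lies 2.92 points closer.

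Domains gathered in some megabases and were missing from others. A full 1 Mb window on these arms held a median of 4 domains, and 8 of 117 windows held none. The highest counts were on X, with 15 domains and 18 narrower regions from 2000001 to 3000000, and 13 domains each from 1000001 to 2000000 and from 15000001 to 16000000. The 10 fullest windows held 108 domains. Of the 8 empty windows, 5 lay on 2L, and 3 of all 8 were near the centromere-side end of an arm: 2L from 22000001 to 23000000, 2R from 1 to 1000000 and 3L from 23000001 to 24000000. Lack of domains did not mean lack of binding, since the 8 windows held 136 narrower regions. Windows named here were picked after their values were seen.

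Domains had closer neighbours than narrower regions on every arm but 3L. The edge-to-edge distance to the nearest combined region had a median of 875 bp for broad domains and 1610 bp for narrower regions, a ratio of 0.543. Another region within 500 bp was found for 34.4% of broad domains and 24.6% of narrower regions. On X the medians were 773 bp for domains and 945 bp for narrower regions, and on the autosomal arms pooled 939 and 1747 bp. The single autosomal arms were uneven. Domains had a median of 693 bp on 2L, 1049 bp on 2R and 853 bp on 3R, against 1997, 1532 and 1841 bp for narrower regions. On 3L it was 1706 bp for domains and 1667 bp for narrower regions, the opposite direction. With combined regions up to 500 bp apart joined, a setting chosen after the values were seen, the ratio was 0.780. Measured between centres it was 1.48, because wide regions keep the centres of their neighbours away.

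**Figure D5:**
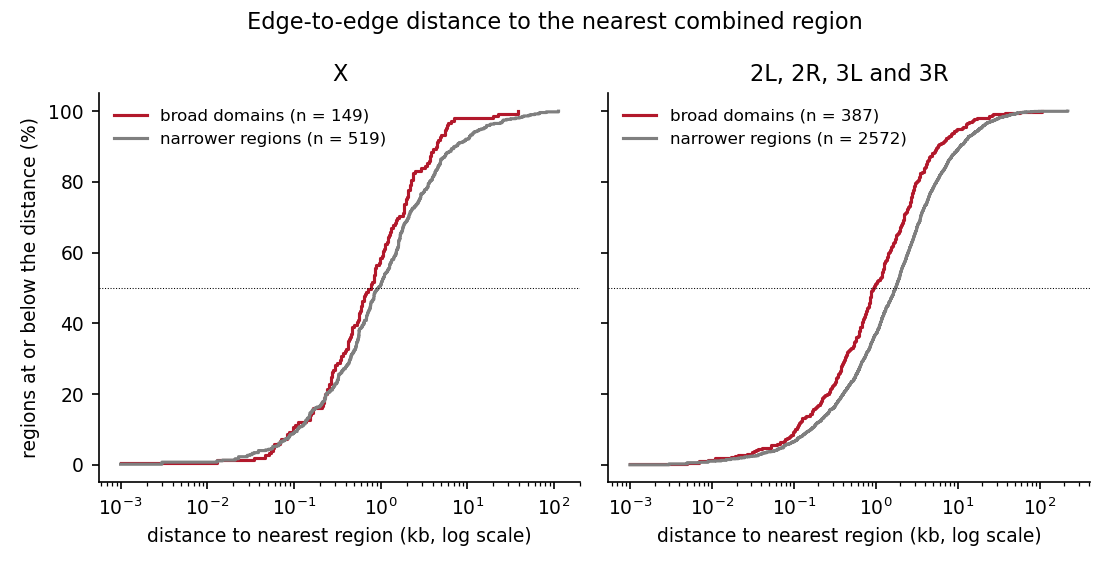
Cumulative percentage of regions (vertical axis) by edge-to-edge distance to the nearest combined region (horizontal axis, kb, log scale) for broad domains (red) and narrower regions (grey), on X at left and on 2L, 2R, 3L and 3R at right. The curves lie close together on X, with medians of 773 and 945 bp, and farther apart on the autosomal arms pooled, with medians of 939 and 1747 bp, although on 3L alone the medians were 1706 and 1667 bp.

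The neighbours themselves were similar in size. The nearest region had a median width of 2815 bp for broad domains and 2645 bp for narrower regions, and a median score of 0.652 and 0.556. It was found in both replicates for 62.3% of domains and 60.3% of narrower regions, and in neither for 23.1% and 26.0%. Within 25 kb to each side, other regions covered a median of 34.0% of the sequence around broad domains and 27.0% around narrower regions, with a median of 5 and 4 other regions.

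Broad domains also lay near each other. The next domain was a median of 25.2 kb away from a broad domain, against 57.3 kb from a narrower region. Another domain within 10 kb was found for 165 of 541 domains (30.5%) and for 19.4% of narrower regions. On X this held for 45.0% of domains and 26.6% of narrower regions, and on the autosomal arms for 24.5% and 18.2%. These 165 domains formed 75 runs, of which 62 had 2 members, 11 had 3 and 2 had 4.

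Both runs of 4 were on X. The longest spanned 69.1 kb from 19494088 to 19563168, with 78.7% of its bases in domains. Its members scored from 1.31 to 1.45 in replicate 1 and from 1.03 to 1.70 in replicate 2, and it held 8 regions in replicate 1 and 6 in replicate 2. The other spanned 58.2 kb from 2473532 to 2531714, with 73.3% in domains and member scores from 0.916 to 1.51 in replicate 1 and from 0.874 to 1.56 in replicate 2. The next in length was a run of 3 on 3R, 47.6 kb from 11151518 to 11199140, with 78.8% in domains and scores from 1.06 to 1.29 and from 1.21 to 1.33. A shorter run of 3 on X, 38.9 kb from 2595692 to 2634600, was 96.5% domain, a value noticed afterwards. Its scores reached 1.80 in replicate 1 and 2.07 in replicate 2.

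A few domains stood far from any other region. The farthest, 7.24 kb on 2R from 14856978 to 14864214, had its nearest neighbour 108 kb away, and it was undivided and scored 1.92 in replicate 1 and 2.01 in replicate 2. Next came 8.56 kb on 3L from 2370476 to 2379036, 57.6 kb from any region, and 15.7 kb on X from 12790250 to 12805948, 38.9 kb from any region and 98.6% covered on average. The others were on 3R from 730876 (38.1 kb) and on 2L from 5798726 (27.2 kb). In all, 10 of 541 domains (1.85%) were more than 20 kb from the nearest region, against 4.31% of narrower regions.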

How the data were processed

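Reads had been aligned with Bowtie 0.12.7 per the submitters' processing notes, and positions are on FlyBase release 5 per the file headers. The authors deposited 1 list of enriched regions for each ChIP replicate and 1 combined list, with 1 score per region. The scale of that score, the caller, its threshold, and how the replicates were combined are stated in neither the labels nor the headers. Input libraries enter through those calls only.

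Overlaps, widths, gaps and distances were computed from the lists with SciPy 1.17.1, pandas 2.3.3 and NumPy 2.4.6 under Python 3.11.15, after the counting of splits and gaps had been tested on simulated lists. Scores were compared within a list, or as the mean and SD of both replicates. With 2 ChIP libraries, and members selected on width, no significance test was run. Widths and gaps depend on how the caller joins enrichment: some neighbouring combined regions lay 1 bp apart and stayed separate.

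The regions named are the widest, highest- and lowest-scoring, most divided, least covered and most distant domains, those at the width limit and the longest runs. The members, rules and lists were chosen with earlier results of these data known. The gene table at hand is on release 6, so genes and sequences within the domains were not analysed here.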

Additional observations from a re-analysis of the deposited data

How the results depend on the processing

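The count of 541 domains became 1052 with a limit of 5000 bp and 198 with 10000 bp. It was 709 when combined regions up to 500 bp apart were joined and stayed within 1.5 times under the other settings. The share of domains held as 1 region per replicate (55.6%) was 70.1% with a limit of 5000 bp, 40.9% with 10000 bp, 77.3% with replicate gaps up to 500 bp joined and 88.7% with gaps up to 1000 bp joined. The covered share of domain bases (87.6%) was 81.9% when only the 50% of regions with the highest scores were kept in each list. That setting also drops weaker replicate regions inside domains. It is therefore not the coverage of high-scoring domains by all replicate regions. The replicate score difference (0.406) was 0.421 with a limit of 5000 bp, 0.314 with the mean score of the pieces, 0.334 with the combined score, 0.372 between means and 0.145 against narrower regions of 5 to under 7 kb. The lead of X (9.23 points) was 5.52 points with a limit of 10000 bp, 2.64 domains per Mb, 3.07 points of covered sequence, 3.98 points over all combined regions and 2.19 points in the replicates' own lists. The ratio of neighbour distances (0.543) was 0.628 with a limit of 5000 bp, 0.570 with 10000 bp, 0.628 with neighbours found in both replicates, 0.590 between means, 0.818 on X, 0.537 on the autosomal arms, 0.347 on 2L, 0.685 on 2R, 0.463 on 3R, 0.780 with combined regions up to 500 bp apart joined, and 0.530 to 0.534 without 1 replicate. It reversed to 1.48 between centres and to 1.02 on 3L. The shift along the arm (3.83 points) was 3.17 with a limit of 5000 bp, 0.923 Mb as a distance, 3.81 to 4.35 without 1 replicate, 9.54 on X, 8.07 on 2L, 4.95 on 2R, 2.51 on 3L and, reversed, -2.92 on 3R. An overlap of 50% of the shorter region moved none of the results it was tried on beyond their spread. The settings for single arms, the pooled autosomal arms, all combined regions, joined combined regions, the replicates' own lists and narrower regions of 5 to under 7 kb were chosen after seeing the data. For the reversals on 3L and 3R the cause was not tested. Depth is unknown, so its part in breaks found in 1 replicate was not tested. No paired analysis was possible because no result comes from a test. Differences within each replicate are given as values.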

Other observations

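Outside the 6 arms, 2 combined regions of at least 7 kb overlapped both replicates. One lay on the heterochromatic scaffold 3LHet from 599914 to 608236, 8323 bp wide, with a combined score of 0.719. It was 2 regions in each replicate, and its best piece scored 0.876 in replicate 1 and 0.786 in replicate 2. The other lay on the unplaced sequence U from 4021538 to 4030984, 9447 bp wide, with a combined score of 0.899, and it was 1 region in each replicate with scores of 0.806 and 0.980. Both combined scores were below the lower quartile of broad domains on the arms, 1.05.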
